A study of Mus musculus with 6 samples.

Results

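MHC class I presents peptides made inside the cell to CD8+ T cells. The 9 genes described here encode the classical heavy chains (H2-K1, H2-D1), their light chain (B2m), the peptide transporter (Tap1, Tap2), tapasin (Tapbp), a pair of immunoproteasome subunits (Psmb8, Psmb9) and the class I transactivator (Nlrc5). They were chosen by name, with earlier results of these data known. They are 9 of the 21951 protein-coding genes and 55450 genes of all kinds in GENCODE vM21 (mouse genome build GRCm38). Promoter H3K4me3 was compared between Scid.adh.2C2 and 230-238, with 2 H3K4me3 ChIP libraries and 1 input library per line. Scid.adh.2C2 is a T-cell progenitor line, a subclone grown from a spontaneous thymic tumour of a CB17 mouse with the Prkdc scid mutation, and it resembles DN3 thymocytes. 230-238 is a progenitor B cell line transformed with the Abelson virus, for which no mouse strain is given. Each line is therefore 1 tumour-derived or virally transformed line, cultured without any treatment that the labels name, and stands for no normal population. The deposited list of each line combines its ChIP libraries, so no value has a spread between replicates, the depth is unknown, and no difference between the lines could be tested.

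Peptides cut by the proteasome are carried by the TAP transporter into the endoplasmic reticulum (ER), where tapasin holds empty class I molecules at TAP until a peptide binds. The immunoproteasome subunits replace constitutive ones, mostly in lymphoid cells or after interferon, and change which peptides are made. NLRC5 binds no DNA by itself and is recruited to class I promoters by RFX, CREB/ATF and NF-Y proteins. H3K4me3 is a histone mark of promoters that are active or poised, and broad stretches of it are often seen at highly transcribed or lineage genes.

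A promoter was taken as the 2500 bp either side of each annotated transcription start site (TSS) and was called marked when a peak overlapped it. In Scid.adh.2C2, 8 of the 9 genes were marked, against 45.5% of all protein-coding genes. In 230-238 all 9 were marked, against 48.2%, and 8 of 9 were marked in both lines, against 42.2%. The exception was H2-D1, which had a 24.7-fold peak in 230-238 and none in Scid.adh.2C2. Of all 21951 protein-coding genes, 1309 were marked in 230-238 only and 719 in Scid.adh.2C2 only. The promoters of 7 of the 8 genes marked in both lines had more of their length under peaks in 230-238, against 74% of all genes marked in both lines. The height ranked higher in 230-238 for 4 of the 8, against 50.5%.

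**Figure D1:**
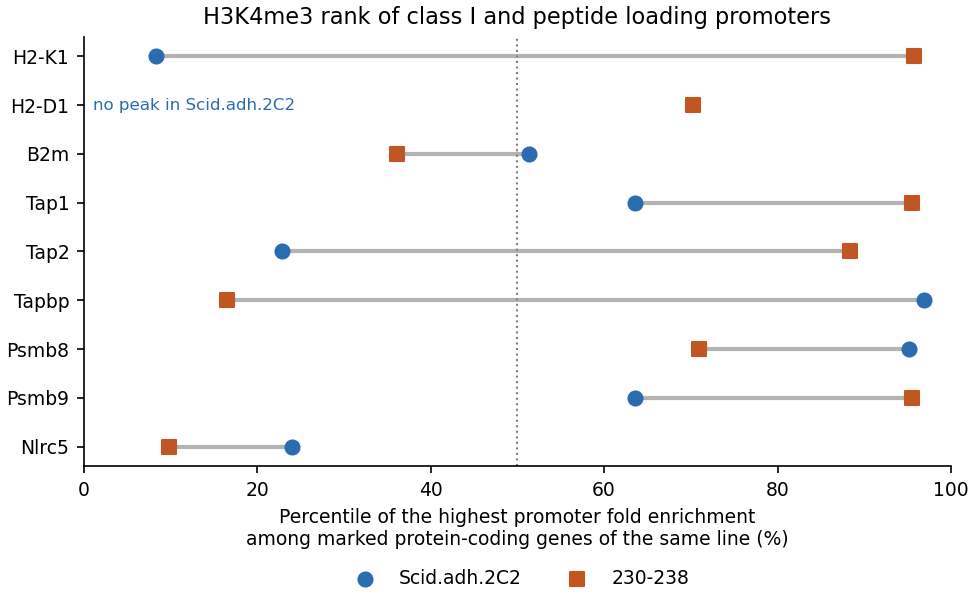
Each row is a gene, and the x axis is the percentile (%) of its highest promoter fold enrichment among the marked protein-coding genes of the same line (circles, Scid.adh.2C2; squares, 230-238; dotted line, the 50th percentile). H2-K1 lies at the 8.33rd percentile in Scid.adh.2C2 and the 95.8th in 230-238, Tapbp at the 96.9th and the 16.5th, and H2-D1 has only a 230-238 value.

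The peak height used throughout is the authors' fold enrichment over background. Its median was 20.3 over the 15513 peaks of Scid.adh.2C2 and 15.4 over the 19604 peaks of 230-238, so folds were read only within a line. Between the lines each gene was compared by its percentile, which is the share of marked protein-coding genes in that line with a lower highest fold, with ties split evenly. Over the 9261 genes marked in both lines, the percentile difference (230-238 minus Scid.adh.2C2) had a median of 0.31 points, and its quartiles were -20.4 and 22.2 points.

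The sequences before the heavy chain and light chain genes are shown because these genes encode the class I molecule itself and because 1 of them, H2-D1, had a peak in 230-238 only. They are RefSeq promoter sequences of GRCm38.p6, which is a C57BL/6J reference and not the strain of Scid.adh.2C2. The 250 bases before the TSS of H2-K1 (chr17:34000348-34000597, minus strand) and of B2m (chr2:122147437-122147686, plus strand) read as follows, 5′ to 3′, with motif matches in capitals.
H2-K1: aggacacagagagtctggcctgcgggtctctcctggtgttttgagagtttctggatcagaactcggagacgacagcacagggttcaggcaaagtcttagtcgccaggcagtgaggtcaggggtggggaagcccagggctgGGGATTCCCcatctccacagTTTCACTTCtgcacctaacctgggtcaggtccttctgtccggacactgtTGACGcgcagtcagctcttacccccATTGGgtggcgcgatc
B2m: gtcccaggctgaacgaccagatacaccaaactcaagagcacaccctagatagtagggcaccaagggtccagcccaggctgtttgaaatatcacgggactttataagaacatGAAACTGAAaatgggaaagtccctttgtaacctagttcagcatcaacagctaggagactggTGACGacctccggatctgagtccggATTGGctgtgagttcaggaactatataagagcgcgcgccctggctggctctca

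All 250 bases of the H2-K1 stretch lay under peaks in both lines. Of the B2m stretch, 149 bases lay under peaks in Scid.adh.2C2 and all 250 in 230-238. The H2-D1 stretch (chr17:35262844-35263093, plus strand) had 0 bases under a peak in Scid.adh.2C2 and all 250 in 230-238. Its RefSeq TSS lies 364 bp downstream of the most upstream GENCODE one, inside an annotated 5′ UTR, so only the 29 bases that hold the kappaB and interferon matches are given (chr17:35262924-35262952, plus strand), beside those of H2-K1 (chr17:34000429-34000457, minus strand).
H2-K1: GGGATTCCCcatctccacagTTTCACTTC
H2-D1: GGGATTCCCcatctcctcagTTTCACTTC

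These 29 bases differed at 1 position, written A17T when counted from 1 at the 5′ end with the H2-K1 base first. Over 177 aligned bases without a gap, the promoters of H2-K1 and H2-D1 shared 161 bases (91.0%). In the reference sequence the promoters of both genes thus held the same kappaB and interferon letters. The sequence of Scid.adh.2C2 itself was not examined.

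The 250 bases of 7 of the 9 genes (all but Tap2 and Nlrc5) were searched on both strands for the letters of elements known at class I promoters. These stretches precede the RefSeq TSS. It lies 474 bp (Psmb8), 434 bp (Psmb9) and 3579 bp (Tapbp) downstream of the most upstream GENCODE TSS, so promoters further upstream were not searched. The kappaB site GGGATTCCC was found in H2-K1 and H2-D1, starting 110 and 170 bases before the TSS, and in 0.315% of 27025 promoters. The core of an interferon response element, GAAANNGAA, was found in B2m and in 7.16% of all promoters. The same element with the other spacing, GAANNGAAA, was added after the sequences were seen. It was in H2-K1 and H2-D1, on the strand opposite to the gene, and in 6.35% of all promoters. TGACG, the core bound by CREB/ATF proteins in the X2 box, was in 5 of the 7 (H2-K1, H2-D1, B2m, Tap1 and Psmb9), against 17.8% of all promoters. CCAAT, the letters bound by NF-Y in the Y box, was in 6 of the 7, Psmb8 being without it, against 34.5%. A GC box, GGGCGG, was in Tap1, Psmb9 and Tapbp (33.0% of all promoters) and a gamma-activated site, TTCNNNGAA, in Psmb8 (7.14%). The Tap1 and Psmb9 stretches overlap, so their matches are partly the same bases read from opposite strands. Those of H2-K1 and H2-D1 are close copies, with 91.0% shared over 177 aligned bases. The 7 stretches are therefore not 7 independent sequences, and the counts of matches should be read with that limit.

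H2-K1 and H2-D1 encode the heavy chains K and D, the classical class I molecules of mice. H2-K1 (chr17:33996017-34000347, minus strand, 16 TSSs) had a short, low peak in Scid.adh.2C2 and a long, high one in 230-238. The Scid.adh.2C2 peak was 711 bp wide and 15.1-fold enriched (chr17:34000098-34000808), at the 8.33rd percentile, with its summit 289 bp upstream of the TSS. The 230-238 peak was 2861 bp wide and 30.9-fold enriched (chr17:33998665-34001525), at the 95.8th percentile, with its summit 253 bp downstream of the nearest TSS of the gene. The difference of 87.4 points was above that of 99.7% of the genes marked in both lines, and the peak was 4.02 times as wide in 230-238.

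H2-D1 (chr17:35262730-35267499, plus strand, 3 TSSs) had a peak of 4354 bp in 230-238 (chr17:35262069-35266422), which held all 3 TSSs and reached 24.7-fold, the 70.3rd percentile. In Scid.adh.2C2 the nearest peak towards the upstream side was 753 bp wide and 13.6-fold enriched. It ended 4354 bp before the first TSS and reached no protein-coding promoter. On the other side the nearest one was 7.72-fold enriched and began 35721 bp beyond the last TSS. A promoter without a peak is one at which none passed the authors' thresholds in the combined list, and depth and background there are unknown.

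Class I genes are close copies of each other, and reads from copies cannot all be placed. Of the 32-base words in the H2-D1 peak of 230-238, 71.2% occurred once in the reference genome. The share was 64.5% in the H2-K1 peak of that line and 88.7% in the shorter H2-K1 peak of Scid.adh.2C2. In the peaks of the 7 other genes it was 94.5% or more. The H2-D1 and H2-K1 peaks of 230-238 shared 8.00% of the words of the former. The part of copied sequence, and of sequence that differs between mouse strains, in the missing H2-D1 peak and in the low H2-K1 peak was not tested.

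B2m encodes beta-2-microglobulin, the light chain of every class I molecule on the cell surface. It lies outside the MHC (chr2:122147686-122153083, plus strand, 1 TSS). In Scid.adh.2C2 it had 2 peaks either side of a short gap just upstream of the TSS. The upstream peak was 762 bp wide and 10.07-fold enriched, and the one holding the TSS was 2787 bp wide and 27.4-fold enriched, at the 51.3rd percentile. In 230-238 a single peak of 6757 bp covered the gene from its promoter into its body (chr2:122145560-122152316), and it was wider than 98.9% of the widest promoter peaks of marked genes in that line. Its height of 19.6-fold was at the 36.1st percentile, with the summit 1235 bp downstream of the TSS. B2m thus had the wider mark and the lower rank in 230-238, a difference of -15.2 points. By the authors' −log10 q-value in place of the fold the difference was 20.3 points, in the other direction.

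**Figure D2:**
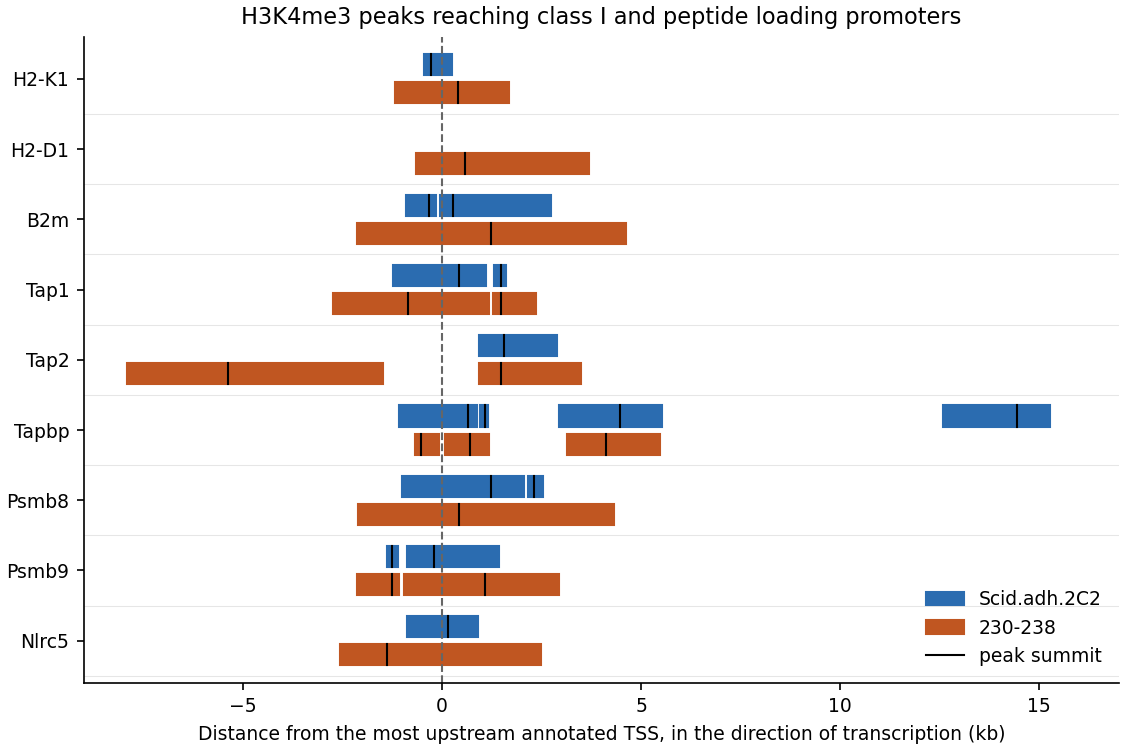
Boxes are the peaks that reach the promoter windows of each gene, placed by distance in kb from its most upstream annotated TSS (dashed line), with upstream to the left (upper boxes, Scid.adh.2C2; lower boxes, 230-238; black ticks, peak summits). H2-D1 has no Scid.adh.2C2 box, and the 6757 bp B2m peak and 5044 bp Nlrc5 peak of 230-238 extend to both sides of those in Scid.adh.2C2.

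Tap1, Tap2, Psmb9 and Psmb8 lie within the class II region of the MHC on chromosome 17, in a stretch of 39335 bp that includes their flanks (chr17:34179487-34218821). Each line had 5 peaks in it. They covered 8015 bp (20.4%) in Scid.adh.2C2 and 15735 bp (40.0%) in 230-238. The stretch was thus covered more widely in 230-238 by as many peaks, though not all at the same sites. A 230-238 peak of 1764 bp and 9.10-fold reached only the promoter of Gm15821, and no Scid.adh.2C2 peak overlapped it.

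Tap1 (chr17:34187553-34197225, plus strand) encodes one subunit of the TAP transporter, and Psmb9 (chr17:34181987-34187764, minus strand) the immunoproteasome subunit also called LMP2. They are transcribed away from each other from a shared promoter, so the same peaks were counted for both. In Scid.adh.2C2 the main shared peak was 2322 bp wide and 29.7-fold enriched (chr17:34186329-34188650), at the 63.6th percentile. In 230-238 it was 3911 bp wide and 30.8-fold enriched (chr17:34184814-34188724), at the 95.5th percentile. The summit lay 171 bp from a Tap1 TSS in Scid.adh.2C2, and in 230-238 it lay 521 bp from the nearest Psmb9 TSS and 855 bp from the nearest Tap1 TSS. A smaller peak inside Tap1 was present in both lines, 301 bp wide at 7.69-fold in Scid.adh.2C2 and 1066 bp wide at 18.02-fold in 230-238. The percentile difference was 31.9 points. For Tap1 it was 0.41 points with a window of 5000 bp, which also took in the 39.0-fold Psmb8 peak of Scid.adh.2C2.

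Psmb8 (chr17:34197721-34201454, plus strand) encodes the immunoproteasome subunit LMP7. It ranked lower in 230-238 than in Scid.adh.2C2. Its Scid.adh.2C2 peak of 3065 bp reached 39.0-fold (chr17:34196722-34199786), at the 95.1st percentile, and a peak of 357 bp at 8.36-fold followed it. In 230-238 a peak of 6432 bp and 24.8-fold (chr17:34195620-34202051) spanned the whole gene, at the 71.0th percentile. The difference was -24.2 points, although the widest peak was 2.10 times as wide in 230-238.

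Tap2 (chr17:34203527-34216321, plus strand, 5 TSSs) encodes the other subunit of TAP. Its peak was 1970 bp wide and 21.1-fold enriched in Scid.adh.2C2 (chr17:34204445-34206414), at the 22.9th percentile, and 2562 bp wide and 28.2-fold enriched in 230-238 (chr17:34204464-34207025), at the 88.4th. The summits were 20 and 103 bp upstream of the nearest Tap2 TSS, 1553 and 1470 bp downstream of the most upstream one. The difference of 65.5 points was above that of 96.8% of the genes marked in both lines. With a window of 5000 bp it was -7.00 points, but that window also took in the 39.0-fold Psmb8 peak of Scid.adh.2C2. The downstream end of the 6432 bp Psmb8 peak of 230-238 already entered the 2500 bp promoter window of Tap2.

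**Figure D3:**
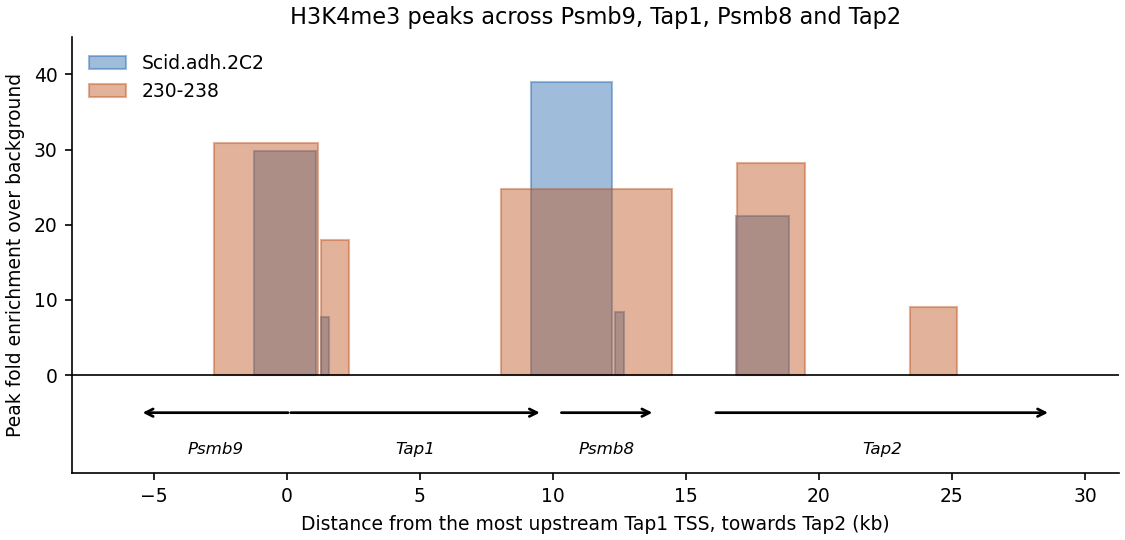
Boxes are the H3K4me3 peaks of each line over the genes Psmb9, Tap1, Psmb8 and Tap2, with the distance from the most upstream Tap1 TSS in kb on the x axis and the authors' fold enrichment on the y axis (arrows, genes in the direction of transcription). The highest Scid.adh.2C2 box is that of Psmb8 at 39.0-fold and the highest 230-238 box is that of Tap1 and Psmb9 at 30.8-fold.

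Tapbp encodes tapasin, which bridges class I molecules and TAP and edits the peptides they carry. It lies in the MHC close to H2-K1 (chr17:33915899-33929292, plus strand, 9 TSSs) and was the only one of the 8 genes with less of its promoter windows under peaks in 230-238 (4049 bp against 4861 bp). The peak over most of its TSSs was 2589 bp wide and 40.4-fold enriched in Scid.adh.2C2 (chr17:33918845-33921433), and 2338 bp wide and 12.4-fold enriched in 230-238. The highest peak reaching any Tapbp promoter in 230-238 was another one, 1105 bp wide and 15.5-fold enriched. The highest folds were at the 96.9th and the 16.5th percentile, a difference of -80.4 points, and 0.481% of the genes marked in both lines had a lower one. The difference depended on the choice of TSSs and on the size of the window. With the most upstream TSS alone it was 1.02 points, and with a window of 5000 bp it was -0.46 points.

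Peaks at Tapbp were shared with 3 other protein-coding genes. The upstream peaks also reached the promoters of Daxx, which encodes a chaperone of histone H3.3, and of Zbtb22, which encodes a zinc finger protein. In Scid.adh.2C2 they were a 1952 bp peak of 18.8-fold and a 190 bp peak of 4.39-fold, the latter reaching Zbtb22 but not Daxx. In 230-238 they were the 1105 bp peak and a 606 bp peak of 7.36-fold, both reaching Daxx and Zbtb22. A Scid.adh.2C2 peak of 2685 bp and 35.5-fold with its summit 50 bp from a TSS of Rgl2, which encodes an exchange factor for Ral GTPases, touched a downstream Tapbp window. No Tapbp peak of 230-238 reached Rgl2.

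Nlrc5 encodes the transactivator that drives H2-K1, H2-D1, B2m, Tap1 and Psmb9 in lymphocytes. It lies on chromosome 8 (chr8:94434356-94527272, plus strand, 8 TSSs) and shares its promoter with the long noncoding RNA gene 9330175E14Rik. In Scid.adh.2C2 its peak was 1784 bp wide and 21.4-fold enriched, at the 24.1st percentile, with the summit 114 bp from an Nlrc5 TSS. In 230-238 it was 5044 bp wide and 13.4-fold enriched (chr8:94431791-94436834), at the 9.82nd percentile, with the summit 1378 bp upstream of the first Nlrc5 TSS and 1188 bp from the nearest TSS of 9330175E14Rik. The peak was thus wider by 2.83 times and lower in rank in 230-238, by -14.2 points. By the −log10 q-value the difference was 13.2 points in the other direction.

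The length of promoter under peaks differed in a more uniform direction than the height. The same held over all genes marked in both lines, of which 74% were covered further and 50.5% ranked higher in 230-238. The length under peaks is summed over the joined windows of all TSSs of a gene. These windows span 5001 bp for B2m, with 1 TSS, and 26438 bp for Nlrc5, with 8. The comparisons with all genes were not matched for window length. H2-K1 had 711 bp in Scid.adh.2C2 and 2861 bp in 230-238, B2m 3316 and 4627 bp, and Tap1 2623 and 4738 bp. Tap2 had 1970 and 3587 bp, Psmb8 3422 and 6235 bp, Psmb9 2623 and 4977 bp, and Nlrc5 1784 and 4979 bp. All of these 7 were covered further in 230-238 and Tapbp was not. The count of 7 of 8 is close to the share of 74% over all 9261 genes marked in both lines. It was 8 of 8 for other class I and class I-like genes, 4 of 4 for class II and 12 of 14 for the constitutive proteasome. For other immunoproteasome and activator genes it was 4 of 5, for ER loading partners 5 of 7 and for class I promoter factors 7 of 13. The median difference was 2132.5 bp over the 8 genes and 268 bp over all genes marked in both lines. The differences of H2-K1, Tap1, Psmb8, Psmb9 and Nlrc5 were each above those of between 95.04% and 98.1% of these genes, while those of Tap2 and B2m were above 92.1% and 88.7%. Tap1 and Psmb9 share their peaks and count as 1 observation. Of the 3587 bp of Tap2 in 230-238, 1025 bp lay under the peak already counted for Psmb8. With the highest Tap2 peak alone the difference was 592 bp, above those of 70.0% of the genes.

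**Figure D4:**
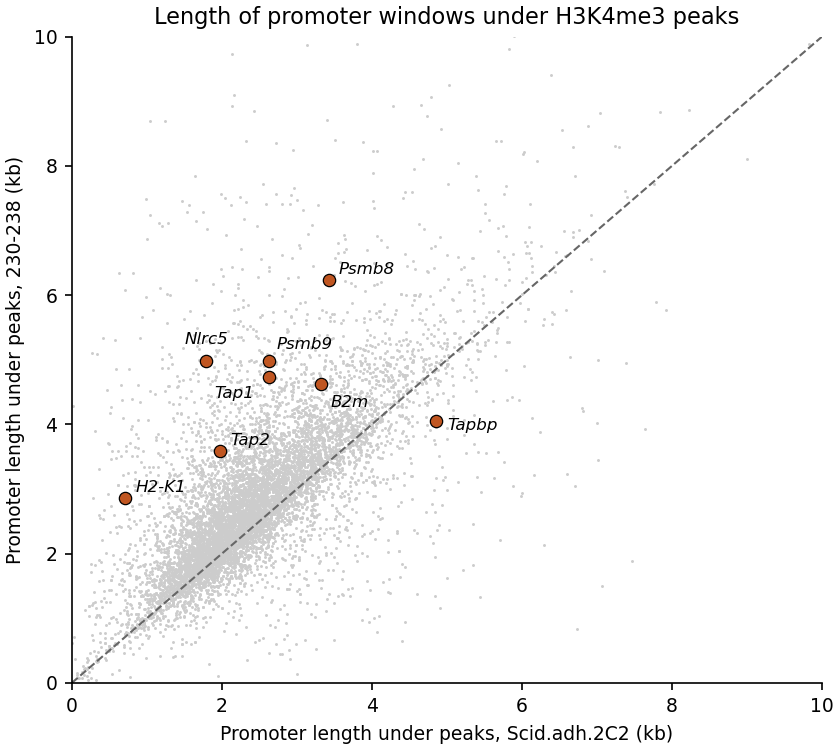
Each point is a gene marked in both lines, placed by the length of its promoter windows under peaks in kb in Scid.adh.2C2 (x axis) and 230-238 (y axis), with all 9261 genes in grey, of which 18 lie beyond the 10 kb axes, and equal lengths on the dashed line. The 7 labelled genes above the line lie between 2861 and 6235 bp in 230-238, and Tapbp lies below it.

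Of the 13 peaks that reached these promoters in Scid.adh.2C2, 5 also reached another protein-coding promoter, and of the 11 in 230-238, 5 did. Over all peaks at protein-coding promoters, 17.5% in Scid.adh.2C2 and 17% in 230-238 reached those of at least 2 genes. In Scid.adh.2C2 these were both Tap1 and Psmb9 peaks, the peaks shared with Daxx or Zbtb22, and the one at Rgl2. In 230-238 they were both Tap1 and Psmb9 peaks, the Psmb8 peak that entered the Tap2 window, and both peaks shared with Daxx and Zbtb22. The peaks of H2-K1, H2-D1, B2m and Nlrc5 reached no other protein-coding promoter in either line.

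Most other genes of the class I pathway were marked in both lines. All 7 ER folding and loading partners were, among them Pdia3, the partner of tapasin in the loading complex, which had their highest fold in both lines (41.5 in Scid.adh.2C2 and 29.7 in 230-238, from a peak that also reached Catsper2). Ganab, a trimming glucosidase, followed in Scid.adh.2C2 (34.6-fold) and Erap1, which trims peptides in the ER, in 230-238 (26.8-fold). All 14 constitutive proteasome core genes were marked in both lines, led by Psmb4 (42.0-fold) and Psma2 (36.7-fold) in Scid.adh.2C2 and by Psma5 (34.4-fold) and Psma2 (33.9-fold) in 230-238, the Psma2 peaks being shared with Mrpl32. Of 6 other immunoproteasome and activator genes, 6 were marked in Scid.adh.2C2 and 5 in 230-238, which became 4 and 3 with peaks of an IDR score of 1000 only. Psmb10, the remaining immunoproteasome subunit, was at 41.8-fold in Scid.adh.2C2 and 26.3-fold in 230-238, and Psme1, a subunit of the PA28 activator, at 37.5-fold and 29.98-fold from a peak that also reached Fitm1. By percentile, Psmb10 was at the 98.0th in Scid.adh.2C2 and the 79.6th in 230-238, and Psme1 at the 92.5th and the 94.0th. Pomp, a proteasome assembly factor, was marked in Scid.adh.2C2 only, at 24.7-fold. As for H2-D1, this means that no 230-238 peak there passed the authors' thresholds, and whether the mark is absent was not tested. All 13 genes of transcription factors that act at class I promoters were marked in both lines, among them Rela (30.8-fold) in Scid.adh.2C2, and led by Atf1 (31.2-fold) and Nfyc (30.6-fold) in 230-238.

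Other class I and class I-like heavy chain genes were marked less widely. Of 29, 9 were marked in each line and 8 in both, and 19 in neither. Of all protein-coding genes, 45.5% were marked in Scid.adh.2C2, 48.2% in 230-238 and 42.2% in both. Many of these genes are close copies too, and their copied sequence was not counted. Its part in the missing peaks, and that of strain differences, was not tested. H2-M3, which presents formylated peptides, had 33.5-fold in Scid.adh.2C2, at the 81.0th percentile. In 230-238 it had 28.8-fold, which was the higher rank, at the 90.6th percentile. H2-T23, which encodes Qa-1, had 28.9-fold in Scid.adh.2C2, and Cd1d1, which presents lipids to NKT cells, 30.5-fold in 230-238. H2-T3 was marked in Scid.adh.2C2 only (19.2-fold) and H2-Q4 in 230-238 only (25.8-fold).

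MHC class II molecules present peptides from outside the cell and are typical of B cells and other presenting cells. All 11 genes of the class II list, which also holds Cd74 and Ciita, were marked in 230-238. In Scid.adh.2C2 4 were, namely H2-DMa (32.7-fold), H2-Ab1 (31.4-fold), H2-Eb2 (20.2-fold) and H2-Oa (16.1-fold). Over all protein-coding genes, 48.2% were marked in 230-238 and 45.5% in Scid.adh.2C2. The H2-DMa peak also reached the promoter of Brd2, a widely expressed chromatin reader, in both lines. H2-Aa, H2-Eb1, H2-DMb1, H2-DMb2, H2-Ob, Cd74 and Ciita were marked in 230-238 only. So were 1309 of all 21951 protein-coding genes. In 230-238 the highest folds were those of H2-DMa (29.98) and of Ciita, the class II transactivator (23.2). By percentile, H2-DMa was at the 78.0th in Scid.adh.2C2 and the 94.0th in 230-238.

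**Figure D5:**
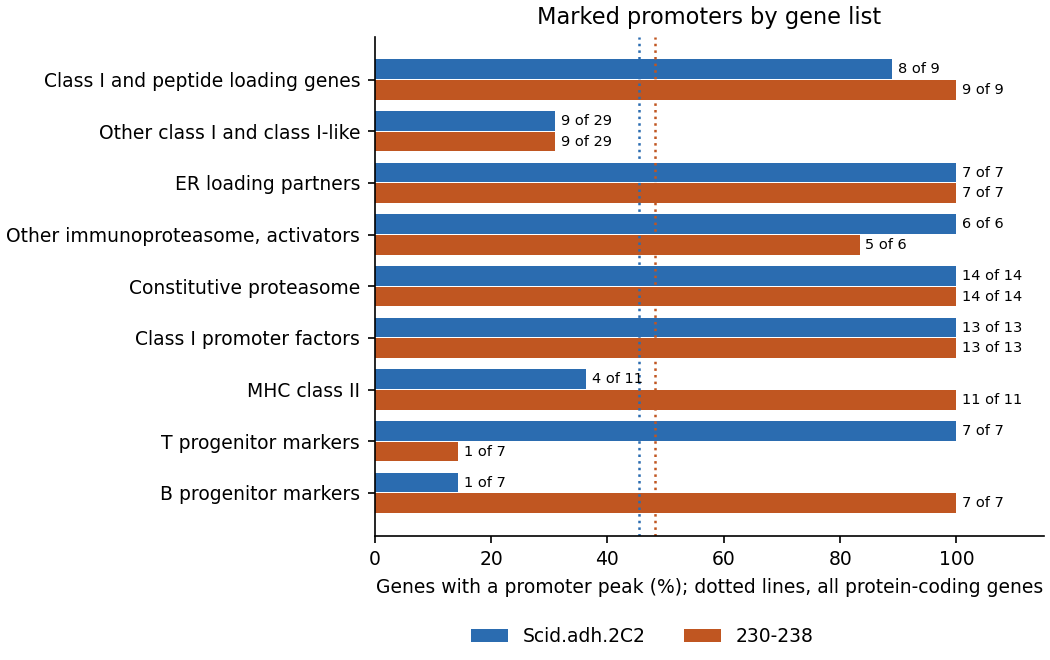
Bars give the share of the genes of each list with a promoter peak (x axis, %) in Scid.adh.2C2 (upper bars) and 230-238 (lower bars), with the counts beside them and dotted lines at 45.5% and 48.2%, the shares of all protein-coding genes. The lists of class II genes and of T and B progenitor markers differ most between the lines, and the constitutive proteasome core, the ER loading partners and the class I promoter factors are at 100% in both.

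The labelled cell types were set beside markers of T-cell and B-cell progenitors. These lists were chosen with earlier results of these data known, so their counts are no independent check of cell type. Of all protein-coding genes, 45.5% were marked in Scid.adh.2C2 and 48.2% in 230-238. All 7 T-cell progenitor markers were marked in Scid.adh.2C2 and 1 in 230-238, and all 7 B-cell progenitor markers were marked in 230-238 and 1 in Scid.adh.2C2. The exceptions were Cd3d, at 16.8-fold in 230-238 and 38.0-fold in Scid.adh.2C2, and Vpreb1, at 29.9-fold in Scid.adh.2C2 and 21.2-fold in 230-238. The Vpreb1 peak also reached the promoter of Top3b, which encodes a topoisomerase, in both lines, so it is not a mark of Vpreb1 alone, and the Cd3d peak of Scid.adh.2C2 was shared with Cd3g. Igll1 had an 8.79-fold peak, at the 2.04th percentile, that also reached Vpreb1 and was lost with a window of 1000 bp, with summits inside the window, with peaks of at least 10-fold and with equal numbers of peaks. Under each of these, and with peaks of an IDR score of 1000, 6 of the 7 B-cell markers were marked in 230-238. The T-cell markers in 230-238 numbered 0 with the most upstream TSS and 2 with a window of 5000 bp. Cd3e, Cd3g, Thy1, Ptcra, Bcl11b and Gata3 had a promoter peak in Scid.adh.2C2 and none in 230-238. Ebf1, Pax5, Cd79a, Cd79b and Igll1 were marked in 230-238 only. The highest folds were those of Cd3e (41.5) and Gata3 (39.9) in Scid.adh.2C2, and that of Cd79b (29.0) in 230-238.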

How the data were processed

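H3K4me3 ChIP-seq libraries (2 per line) and 1 input library per line were trimmed by the authors with Trim Galore 0.6.7, mapped to GRCm38 (mm10) with Bowtie2 2.4.4 and used for peak calling with MACS2 2.2.7.1, versions as in the submitters' processing notes. Peaks were called in narrow mode at a q-value of 0.05 against input and filtered by the irreproducible discovery rate (IDR) at 0.05. The deposited list of each line combines the replicates and holds, as made by the authors, the position and IDR score of each peak, its fold enrichment (a ratio over background), and its p-value and q-value on the −log10 scale. No counts or values per replicate were analysed here, so depth is unknown and no test was made. How reads with several equally good placements were handled is not given in the sources used here.

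Peaks were assigned to GENCODE vM21 TSSs when they overlapped the 2500 bp either side by 1 bp or more. The overlap functions were tested on simulated data. The genes named were all 9 members, the protein-coding genes whose promoter windows their peaks also reach and, of each pathway list, the genes marked in 1 line only and the 2 with the highest fold per line. The class II genes marked in Scid.adh.2C2 and the markers were also named, after their values were seen. A few genes of the lists are counted but not reported by name here. The members and the lists were chosen with earlier results of these data known. The 100 kb neighbourhoods were added after the values were seen. Words of 32 bases were counted on both strands of the reference chromosomes. Python 3.11.15, numpy 2.4.6, pandas 2.3.3, matplotlib 3.10.9 and Biopython 1.88 were used.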

Additional observations from a re-analysis of the deposited data

How the results depend on the processing

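The counts of marked class I and peptide loading genes were recomputed with windows of 1000 and 5000 bp, the most upstream TSS, TSSs of protein-coding transcripts, summits inside the window, peaks of at least 10-fold, peaks with an IDR score of 1000, and equal numbers of peaks. The count stayed at 8 in Scid.adh.2C2, except with 5000 bp, where H2-D1 was reached by a 13.6-fold peak and it was 9. It was 9 in 230-238 under each. Among the pathway lists, the other immunoproteasome and activator genes marked in both lines fell from 5 to 2 with an IDR score of 1000, Psmb10, Psme1 and Psme3 being lost. With 5000 bp 8 genes, and otherwise 7, were covered further in 230-238.

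The percentile difference (230-238 minus Scid.adh.2C2) changed sign in 4 of 72 recomputed values. It became 20.3 for B2m and 13.2 for Nlrc5 by −log10 q, and 1.02 for Tapbp with the most upstream TSS. For Tap2 it became -7.00 with 5000 bp, a window that also took in the Psmb8 peak of Scid.adh.2C2. For H2-K1 it stayed between 86.4 and 90.8 points. With peaks within 1000 bp merged, the median of the widest peak per gene was 2758.5 bp in Scid.adh.2C2 and 5088.0 bp in 230-238, against 2322 and 4354 bp. These medians are over the 8 genes marked in Scid.adh.2C2 and the 9 marked in 230-238, H2-D1 among the latter. A peak shared by several of the genes counts for each, as the 6432 bp peak does for Psmb8 and Tap2. Peaks reaching another protein-coding promoter numbered 3 in each line with 1000 bp, and 2 in each when a peak had to contain a TSS of both genes, against 5.

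No paired analysis was possible because the replicates of each line are combined in 1 list, and leaving out a replicate needs values per replicate. A difference between the lines cannot be told apart from one between their libraries.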

Other observations

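The protein-coding genes within 100 kb of these genes were counted after the values were seen, leaving out the 9 genes themselves. Around Psmb8, 7 of 7 were marked in 230-238 and 3 in Scid.adh.2C2, with H2-Aa, H2-DMb1, H2-DMb2 and H2-Ob marked in 230-238 only. Around H2-D1, 10 of 12 were marked in 230-238 and 7 in Scid.adh.2C2, with Aif1, Gm16181 and Lta, which encodes lymphotoxin alpha, marked in 230-238 only. Over all protein-coding genes 45.5% were marked in Scid.adh.2C2 and 48.2% in 230-238. Around Tapbp and H2-K1, which share neighbours, the counts ran the other way, with 16 of 18 genes marked in Scid.adh.2C2 and 13 in 230-238 around Tapbp, and 13 of 15 and 10 around H2-K1. At both, B3galt4, Rps18, which encodes a ribosomal protein, and Vps52 were marked in Scid.adh.2C2 only. Whether the mark is absent at the genes without a peak was not tested. Around B2m, 3 of 6 genes were marked in Scid.adh.2C2 and 4 in 230-238, with Trim69 marked in 230-238 only.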
